A study of Homo sapiens with 24 samples.

Results

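The glycolysis and hypoxia response genes described here are 46 listed genes for glucose uptake, the steps from glucose to pyruvate and lactate, oxygen sensing and the response to low oxygen. A gene was taken as measured where the platform annotation gives at least 1 probe set with that gene as its single symbol. That left 43 genes on 109 probe sets, out of 19775 genes and 54613 probe sets that are not controls. The expression of SLC16A1, SLC16A3 and CA9 was not analysed here, nor were 4 probe sets that carry a second symbol (SLC2A3 with SLC2A14, and EGLN2 with RAB4B). Of the 43 measured genes, 38 were bright enough to be tested among 11380 genes.

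P3HR1 is an established Burkitt lymphoma cell line that carries Epstein-Barr virus. The cells held the doxycycline-inducible vector pRTS1, which made either green fluorescent protein (GFP) alone in the control cells or GFP with the miR-28 precursor in the miR-28 cells. For each vector 2 bulk populations, A and B, were induced 3 times for 12 h and 3 times for 24 h, which gave 24 Affymetrix arrays in 4 groups of 6. Every group received doxycycline, at 0.1 ug/ml by the treatment field and at 1 ug/ml by the source field of the labels, so no group shows uninduced cells. The replicates were repeated inductions of the same populations, so the p-values below rest on how much arrays varied and say little about how newly made populations would vary. A change with time is the difference between arrays at 24 h and 12 h of induction within a genotype, and the time of culture and the time in doxycycline cannot be told apart in it.

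Glycolysis breaks glucose down to pyruvate, which is either reduced to lactate or passed to the mitochondria. When oxygen is low, prolyl hydroxylases of the EGLN family no longer mark the hypoxia-inducible factor (HIF) alpha subunits for the VHL ubiquitin ligase. The alpha subunit then pairs with ARNT and binds hypoxia response elements near many glycolytic genes, BNIP3, VEGFA and PDK1. Burkitt lymphoma cells are driven by MYC, which is known to raise many of the same glycolytic genes.

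MicroRNAs act on transcripts that pair with their seed, bases 2 to 8 of the mature strand. One of the mature strands made from the miR-28 precursor is printed to show the agent that separates the genotypes, with its seed in capitals. It lies at chr3:188688834-188688855 on the plus strand (GRCh38.p14, RefSeq), and the other strand is miR-28-5p.
hsa-miR-28-3p: cACUAGAUugugagcuccugga

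The core of the hypoxia response element, spelled ACGTG or GCGTG and read on both strands, was counted in the RefSeq promoter windows of 300 bases (250 before and 50 after a start; GRCh38.p14). It was found in 49 of 71 windows of the listed genes (69.0%) and in 17012 of 35116 windows of all genes (48.4%). The form ACGTG alone was in 29 of the 71 windows (40.8%) and in 7518 of all windows (21.4%). By gene, 35 of the 39 listed genes with a window had the core in at least 1 of them (89.7%), against 14318 of 27305 of all genes (52.4%). Genes differ in how many windows they have, 7 each for HK1 and PFKM, and more windows give more chances of a match. Both spellings contain CG, and the windows of all genes were not matched to those of the listed genes in base composition. These counts include SLC16A3 and CA9, and 7 listed genes were without a window. The 250 bases before the start of ALDOC, which fell with time in both genotypes, and of BNIP3, which rose, are shown as examples. PDK1, PFKFB4 and PFKP, which also rose in both genotypes, hold the core in at least 1 such stretch too. Whether the core has a part in the changes with time was not tested. ALDOC and BNIP3 had 1 window each, and both lie on the minus strand. The sequences run 5′ to 3′ towards the gene, with every match in capitals. A match describes the letters and shows no binding.
ALDOC, chr17:28576896-28577145: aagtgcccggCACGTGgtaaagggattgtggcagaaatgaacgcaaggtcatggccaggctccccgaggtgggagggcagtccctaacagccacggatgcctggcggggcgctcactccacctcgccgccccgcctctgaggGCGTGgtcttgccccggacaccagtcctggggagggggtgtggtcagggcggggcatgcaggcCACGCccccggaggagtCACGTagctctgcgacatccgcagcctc
BNIP3, chr10:131981924-131982173: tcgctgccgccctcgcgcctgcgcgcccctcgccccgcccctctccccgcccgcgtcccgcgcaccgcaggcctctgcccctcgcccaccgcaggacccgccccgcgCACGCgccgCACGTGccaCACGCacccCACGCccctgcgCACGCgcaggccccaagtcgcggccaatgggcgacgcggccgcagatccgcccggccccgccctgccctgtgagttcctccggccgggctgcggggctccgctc
The ALDOC stretch held 4 separate matches and the BNIP3 stretch held 5, counting CACGTG, which reads the same on both strands, once.

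The 2% trimmed mean of each array lay between 500.069 and 500.076, as after scaling to a common value. That agreement does not show that the arrays were alike. The median intensity ran from 73.2 to 93.2. At the bright end the highest intensity of an array ran from 79047 to 151633, and the GAPDH 3' control from 52465 to 90324. The part of this spread in the values of the brightest members was not tested. As a sign of RNA quality, the ACTB control probe sets were compared from end to end; the log2 ratio (3' over 5') exceeded 1 for control B2 at 24 h (1.59) and miR-28 B2 at 12 h (1.05). B-cell markers were bright (8 of 9 measured passed the filter, median intensity 8129), while the lists for T cells, myeloid cells, natural killer cells, fibroblasts with epithelial cells, and erythroid cells had median intensities from 30.3 to 70.1. The summed B-cell markers overlapped between all groups, from 87277 to 99421 in control and 89258 to 100243 in miR-28 cells at 12 h, and from 85009 to 100854 and 85913 to 109748 at 24 h. Single B-cell markers did differ: CD79B and BANK1 were lower at 24 h than at 12 h in control cells (log2 -0.55 and -0.42), and in miR-28 cells CD79B was lower (-0.31) and CD22 higher (0.43). At 24 h the miR-28 cells had higher CD79B, BLNK and BANK1 than control cells (0.24, 0.26 and 0.36) and lower SERPINA9, a germinal centre marker (-0.66). Summed germinal centre markers did not overlap between genotypes at 12 h (17533 to 19354 in control, 14905 to 16981 in miR-28 cells), nor did the dim natural killer list (126 to 246 and 267 to 405). Their part in the results below was not tested. In bulk samples, fewer cells of a type and less RNA per cell cannot be told apart.

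More of these genes were called with time than between genotypes. The members were chosen with earlier results of these data known, so their counts beside the shares of all genes are a description only. From 12 h to 24 h, control cells had 7 members higher and 3 lower of the 38 tested, where limma called 6.14% of all genes (3.6% higher, 2.54% lower) at an adjusted p under 0.05. The miR-28 cells had 5 members higher and 2 lower, where 4.66% of all genes were called (2.65% higher, 2% lower). PFKFB4, PDK1, BNIP3 and PFKP rose and ALDOC fell in both genotypes, which is 50% of the 10 members called in control cells and 71.4% of the 7 called in miR-28 cells. The median log2 change of the 38 members was 0.12 in control and 0.04 in miR-28 cells, and that of all genes tested was 0.00 in each. These fold changes are in log2(intensity + 8) units, in which a dim gene shows less than its true change.

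**Figure D1:**
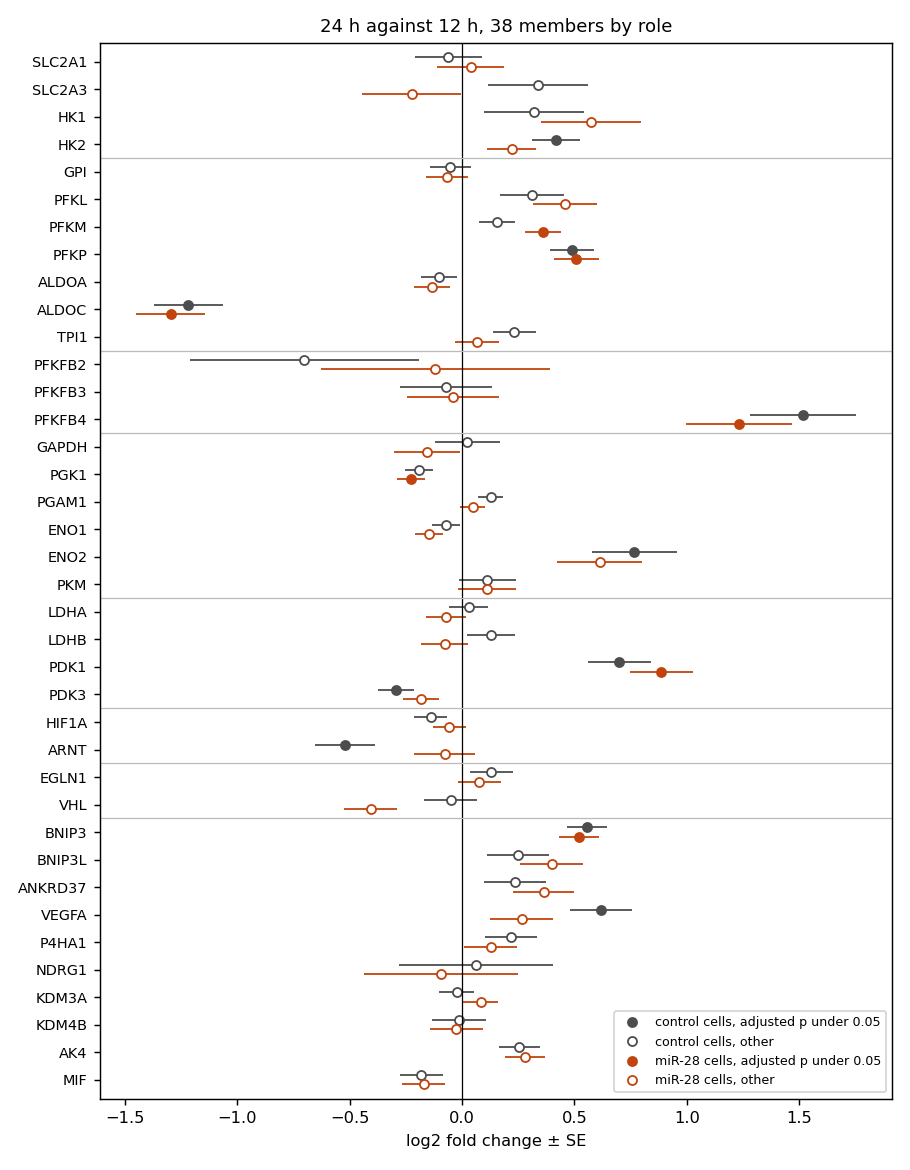
Log2 fold change from 12 h to 24 h with its standard error for the 38 tested members, control cells in grey and miR-28 cells in orange, filled where limma's adjusted p is under 0.05; horizontal lines separate the roles. PFKFB4 lies farthest to the right and ALDOC farthest to the left in both genotypes, and most of the other genes lie within 0.5 of 0.

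PFKFB4 makes fructose 2,6-bisphosphate, the strongest activator of phosphofructokinase. In control cells its intensity (lowest, median and highest of 6 arrays) was 75.8, 119.7 and 247 at 12 h and 269, 448 and 476 at 24 h. In miR-28 cells it was 120.0, 176 and 193 at 12 h and 274, 404 and 509 at 24 h. Every 24 h array lay above every 12 h array in both genotypes. The rise was 1.52 ± 0.24 (log2 ± SE, n = 6 against 6; 2.86-fold; adjusted p = 0.000419, limma) in control and 1.23 ± 0.24 (2.35-fold; adjusted p = 0.00425) in miR-28 cells. The difference between those rises was -0.29 (95% interval -0.98 to 0.41; adjusted p = 0.913). The other members of this enzyme family that were tested, PFKFB2 and PFKFB3, were not called: their changes were -0.70 ± 0.51 and -0.07 ± 0.20 in control cells and -0.12 ± 0.51 and -0.04 ± 0.20 in miR-28 cells.

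Phosphofructokinase, the committed step of glycolysis, has the subunits PFKL, PFKM and PFKP. The PFKP probe set read 3938, 4417 and 4918 at 12 h and 5034, 6363 and 6962 at 24 h in control cells. In miR-28 cells it read 4040.0, 4805 and 5104 and then 5538, 6983 and 7753. The times did not overlap in either genotype, and PFKP rose by 0.49 ± 0.10 (adjusted p = 0.00373, limma) in control and 0.51 ± 0.10 (adjusted p = 0.00468) in miR-28 cells. Its second, dimmer probe set gave -0.38 and -0.04, and with the mean of both the PFKP change was 0.05 in control and 0.23 in miR-28 cells, not called in either (adjusted p = 0.940 and 0.702). PFKM rose in miR-28 cells, from 8293, 8685 and 10949.9 at 12 h to 11037, 11501.5 and 12344 at 24 h, again with no overlap (0.36 ± 0.08; adjusted p = 0.0112). In control cells the PFKM values were 7435, 9171 and 10676 and then 9525, 10011 and 11255, which overlap (0.16 ± 0.08; adjusted p = 0.288). The difference of the PFKM changes was 0.21 (95% interval -0.03 to 0.44; adjusted p = 0.765), so the genotypes were not shown to differ in it. PFKL was 0.31 ± 0.14 and 0.46 ± 0.14, not called (adjusted p = 0.216 and 0.0672).

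ALDOC, the aldolase isoform best known from brain, moved against the phosphofructokinase genes. Control cells read 2164, 3270.4 and 4469 at 12 h and 1120.5, 1292 and 1852 at 24 h. The miR-28 cells read 3023, 3678 and 4497 at 12 h and 1258, 1425 and 1827.5 at 24 h. All 24 h arrays lay below all 12 h arrays in each genotype. ALDOC fell by 1.22 on the log2 scale (SE 0.15; 2.33-fold; adjusted p = 7.09e-05, limma) in control and by 1.30 (SE 0.15; 2.46-fold; adjusted p = 6.75e-05) in miR-28 cells, and the difference was -0.08 (95% interval -0.53 to 0.38). ALDOA, the main isoform of most tissues, was at -0.10 ± 0.08 and -0.13 ± 0.08 and was not called. GPI and TPI1, the isomerases before and after aldolase, were not called either, with changes from -0.07 to 0.23.

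In lower glycolysis, ENO2 and PGK1 were called, each in 1 genotype. ENO2, the neuronal enolase isoform, read 115, 156 and 271 at 12 h and 209, 315 and 381 at 24 h in control cells (0.77 ± 0.19; adjusted p = 0.0163). The miR-28 cells read 209, 265 and 322 and then 343, 402 and 504 (0.61 ± 0.19; adjusted p = 0.0668). The control arrays overlapped between times and the miR-28 arrays did not, although the call went to the control cells. The difference between the ENO2 changes was -0.15 (95% interval -0.71 to 0.40). PGK1, which makes the first ATP of the pathway, fell in miR-28 cells from 25812, 27226 and 30091 to 22682, 23224 and 25030.3 (-0.23 ± 0.06; adjusted p = 0.0434). In control cells PGK1 was at -0.19 ± 0.06 (adjusted p = 0.0780) on this probe set, while another of its probe sets was called lower in the fit of all probe sets (-0.36; adjusted p = 0.0149). The call of PGK1 in miR-28 cells was lost without any 1 of 13 of the 24 arrays. GAPDH, PGAM1, ENO1 and PKM were not called in either genotype, with changes from -0.16 to 0.13.

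Pyruvate meets LDHA and LDHB, the lactate dehydrogenase subunits, or the pyruvate dehydrogenase complex, which the kinases PDK1 and PDK3 switch off. PDK1 read 804, 938 and 1370.5 at 12 h and 1301, 1646 and 2378 at 24 h in control cells. In miR-28 cells it read 734, 930.0 and 1096 and then 1565, 1684 and 2001. The miR-28 arrays separated fully by time, and in control cells the highest 12 h array lay above the lowest 24 h array. PDK1 rose by 0.70 ± 0.14 (1.63-fold; adjusted p = 0.00342, limma) and by 0.89 ± 0.14 (1.85-fold; adjusted p = 0.000995). Its other probe sets gave 0.23 and 0.31 in control and 0.22 and 0.26 in miR-28 cells, and with the mean of all 3 the PDK1 rise was 0.41 and 0.46, called in both genotypes.

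PDK3 went the other way in control cells, from 2312, 2561 and 3121 at 12 h to 1801, 2134 and 2382 at 24 h, with overlap (-0.29 ± 0.08; adjusted p = 0.0318). That call rested on 1 of 5 probe sets: the mean of all 5 was 0.05 (adjusted p = 0.829), on the other side of 0. It was also lost without control array A2, B1 or B2 at 12 h or A1 or A2 at 24 h (5 of 24 arrays). In miR-28 cells PDK3 read 2050.4, 2384 and 2529 and then 1839.7, 2111 and 2204 (-0.18 ± 0.08; adjusted p = 0.207). LDHA and LDHB were not called, with changes from -0.08 to 0.13.

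HK2, which traps glucose in the cell by phosphorylation, rose in control cells from 1220.3, 1494 and 1714 at 12 h to 1729.8, 1908 and 2289 at 24 h, without overlap (0.42 ± 0.11; adjusted p = 0.0224). The miR-28 arrays read 1087, 1174 and 1561 and then 1224, 1477 and 1673 (0.22 ± 0.11; adjusted p = 0.274). The HK2 probe sets disagreed: the 2 dimmer ones gave -0.31 and -0.13 in control cells, and the mean of all 3 was -0.00473 (adjusted p = 0.990). The call was also lost without control array A2 or B1 at 12 h or A3 at 24 h. HK1 and the glucose transporters SLC2A1 and SLC2A3 were not called, with changes from -0.22 to 0.57.

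Among the oxygen sensing genes, HIF1A, the alpha subunit of HIF, was not called with time: it was at -0.14 ± 0.08 in control and -0.06 ± 0.08 in miR-28 cells. Its control arrays read 10946, 12614 and 13304 at 12 h and 10261, 11020.5 and 12368 at 24 h. This is transcript level only, and HIF1A is known to be controlled mainly through the stability of its protein. ARNT fell in control cells from 451, 538 and 575 to 283, 359.8 and 477 (-0.52 ± 0.14; adjusted p = 0.0223) and was at -0.08 ± 0.14 in miR-28 cells, where it read 352, 412 and 540.5 and then 316, 386 and 519. The control arrays overlapped. The difference of the ARNT changes was 0.44 (95% interval 0.05 to 0.84; adjusted p = 0.651). The ARNT call rested on 1 probe set, since the others gave changes from -0.27 to 0.30 and the mean of the probe sets that passed was -0.10 (adjusted p = 0.775). It was also lost without control array A1, A2 or A3 at 24 h. The hydroxylase EGLN1 and VHL were not called (0.13 ± 0.10 and -0.05 ± 0.12 in control, 0.08 ± 0.10 and -0.41 ± 0.12 in miR-28 cells; for VHL in miR-28 cells, adjusted p = 0.0509).

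Of the 10 tested targets of the hypoxia response, BNIP3 rose in both genotypes and VEGFA in control cells. BNIP3, a mitochondrial protein of mitophagy and cell death, read 3453, 4139 and 4526 at 12 h and 4916, 5936 and 7115 at 24 h in control cells. In miR-28 cells it read 3289, 3881 and 3960.3 and then 4708, 5574 and 6078. No array overlapped between times. The rises of BNIP3 were 0.56 ± 0.09 (1.47-fold; adjusted p = 0.000588, limma) and 0.52 ± 0.09 (1.43-fold; adjusted p = 0.00202), and its second probe set gave 0.60 and 0.31.

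VEGFA, a secreted factor for blood vessel growth, read 442, 590.1 and 671 at 12 h and 788, 867 and 1085 at 24 h in control cells, with no overlap (0.62 ± 0.14; adjusted p = 0.00878). In miR-28 cells it read 472, 698 and 856 and then 677, 796 and 940.3, with overlap (0.27 ± 0.14; adjusted p = 0.312). The difference of the VEGFA changes was -0.35 (95% interval -0.76 to 0.05; adjusted p = 0.765). With the mean of the VEGFA probe sets the control change was 0.44 (adjusted p = 0.0725). AK4, a mitochondrial adenylate kinase, was called higher in control cells on a dimmer probe set alone (0.57; adjusted p = 0.00473), while the brightest of its probe sets gave 0.26 ± 0.09 (adjusted p = 0.0955). BNIP3L, ANKRD37, P4HA1, NDRG1, KDM3A, KDM4B and MIF were not called, with changes from -0.18 to 0.40. ADM, P4HA2, EPAS1, EGLN2 and EGLN3 lay below the filter, so no change is given for them.

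**Figure D2:**
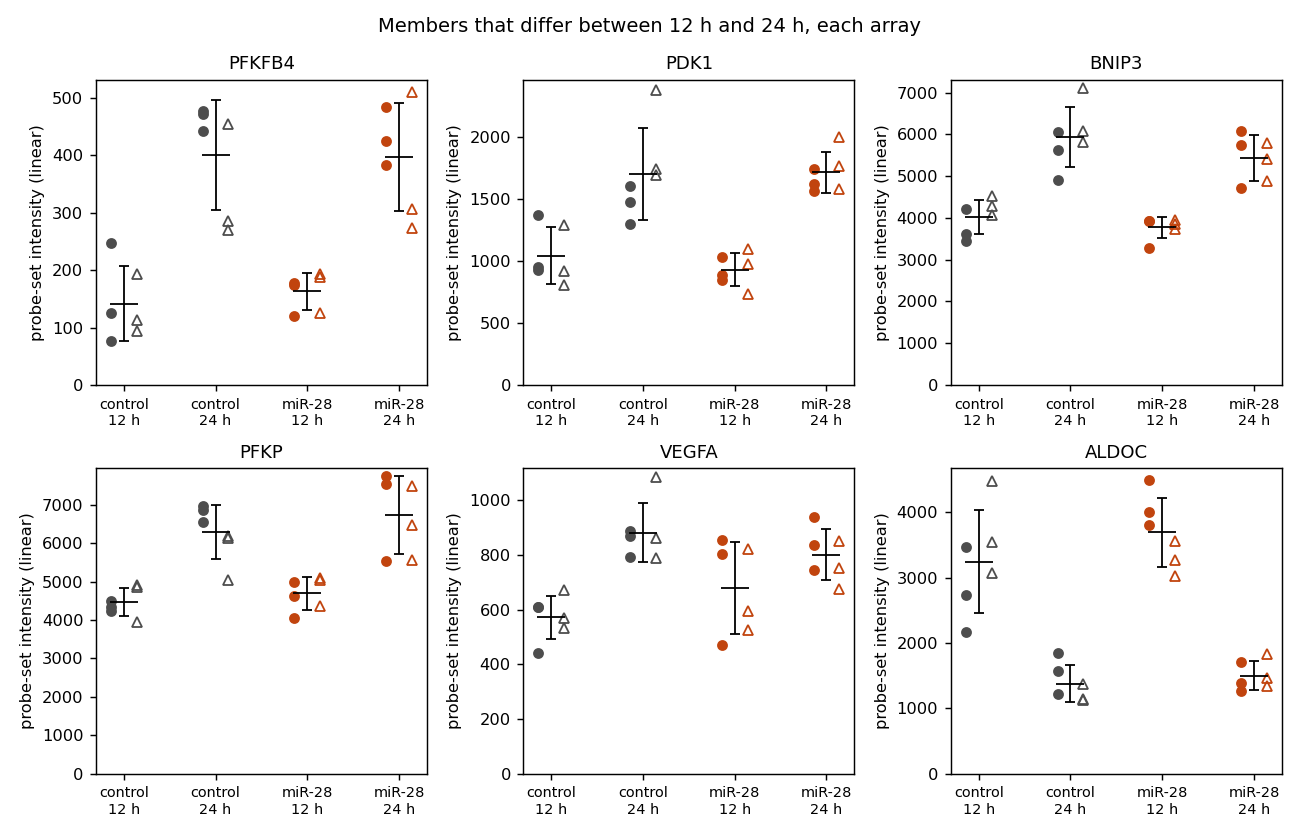
Probe-set intensity on each array for PFKFB4, PDK1, BNIP3, PFKP, VEGFA and ALDOC, by genotype and time; filled circles are population A, open triangles population B, and the bar with whiskers is the mean ± SD of 6 arrays. PFKFB4, BNIP3 and PFKP are higher and ALDOC is lower on every 24 h array in both genotypes, while the VEGFA times separate in control cells only and the PDK1 times in miR-28 cells only.

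Members whose times did not overlap numbered 5 higher and 1 lower in control cells (3.93% of all genes; 2.36% higher, 1.57% lower) and 6 higher and 3 lower in miR-28 cells (3.38% of all genes; 1.96% higher, 1.42% lower). In control cells the 5 were HK2, PFKP, PFKFB4, BNIP3 and VEGFA, and ALDOC was the 1 lower. In miR-28 cells they were PFKM, PFKP, PFKFB4, ENO2, PDK1 and BNIP3, with ALDOC, PGK1 and ENO1 lower.

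The direction of the change with time was also followed within each bulk population, 3 arrays against 3. It was the same in all 4 populations for 22 of the 38 members (57.9%; 15 higher and 7 lower), against 32.5% of all genes tested (16.5% higher, 16% lower). The BNIP3 changes were the most even of the 12 members called with time, from 0.48 to 0.56. PFKFB4 changed by 1.73 and 1.31 in control A and B and by 1.42 and 1.04 in miR-28 A and B. PDK1 changed by 0.45 and 0.95 and by 0.83 and 0.94, and ALDOC by -0.84 and -1.59 and by -1.50 and -1.09. Of the called members, ARNT was the 1 with mixed directions, from -0.74 in control A to 0.03 in miR-28 B.

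**Figure D3:**
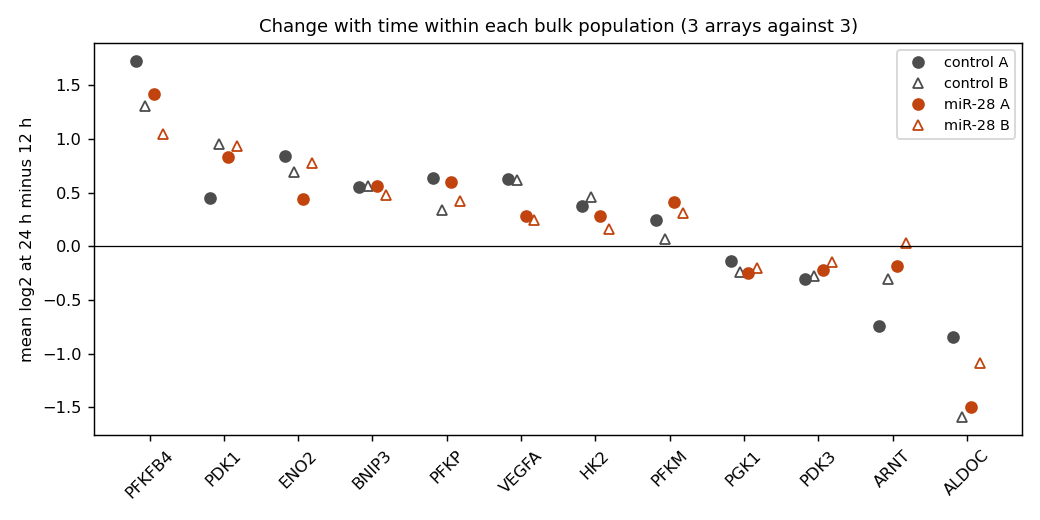
Mean log2 intensity at 24 h minus that at 12 h within each of the 4 bulk populations, for the 12 members called with time in either genotype. All populations lie on one side of 0 for each gene except ARNT, and PFKFB4 and ALDOC lie above 1.0 and below -0.8 in every population.

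The second question was whether miR-28 cells differed from control cells. At 12 h no member was called of 38, where limma called 0.536% of all genes (0.220% higher, 0.316% lower), and all 38 overlapped between genotypes (no overlap in 0.852% of all genes); at an unadjusted p under 0.05, 2 members were higher and 2 lower, beside 592 and 508 of the 11380 genes. At that threshold ENO2 (log2 0.57 ± 0.18) and AK4 (0.20 ± 0.09) were the higher members at 12 h. The lower ones were ARNT (-0.35 ± 0.13) and ANKRD37 (-0.32 ± 0.13). At 24 h HK2 was called lower and no other member was called, where limma called 5.35% of all genes (2.6% higher, 2.75% lower). The median log2 difference of the members was 0.03 at 12 h and -0.04 at 24 h, and that of all genes tested was 0.01 and 0.02. No member differed in its miR-28 effect between the times, where 0% of all genes were called; at an unadjusted p under 0.05, 1 member was higher and 1 lower, beside 386 and 401 of all genes. The genotype comparisons and the time comparisons share arrays, so a high or low control group enters both.

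HK2 was the 1 member that separated the genotypes. At 24 h its brightest probe set read 1729.8, 1908 and 2289 in control cells and 1224, 1477 and 1673 in miR-28 cells, and every miR-28 array lay below every control array (no overlap was seen for 3.50% of all genes, 1.6% higher and 1.9% lower). The difference was -0.41 ± 0.10 (1.33-fold lower; 95% interval -0.62 to -0.19; adjusted p = 0.0224, limma). At 12 h it was -0.21 ± 0.10 (adjusted p = 0.536), with 1220.3, 1494 and 1714 in control and 1087, 1174 and 1561 in miR-28 cells. On the brightest probe set the 24 h and 12 h differences of HK2 were not shown to differ (-0.20; 95% interval -0.51 to 0.12; adjusted p = 0.866). On the dimmest HK2 probe set the 12 h values were mostly higher in miR-28 cells (236 to 545) than in control cells (280 to 387).

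The HK2 probe sets other than the brightest gave -0.22 and -0.12 at 24 h, both in the same direction as the brightest and neither called. The brighter of them read 257, 343 and 501 in control and 200.4, 293 and 440 in miR-28 cells, and the dimmer read 234, 304 and 367 and 204, 301 and 331. With the mean of all 3 probe sets HK2 was at -0.25 (adjusted p = 0.142). The call was also lost without control array A3 or miR-28 array A3, B1 or B2 at 24 h, and with no filter (adjusted p = 0.0607).

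**Figure D4:**
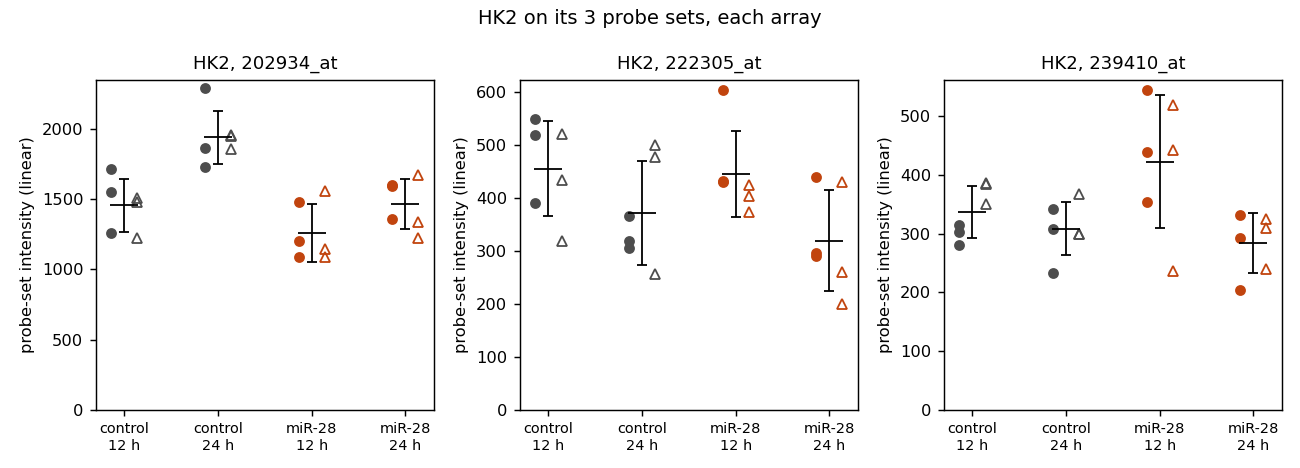
Intensity of the 3 HK2 probe sets on each array by genotype and time, symbols and bars as in the plot of time changes by array; the mean ± SD is over 6 arrays. On the brightest, at the left, the control arrays at 24 h lie above all miR-28 arrays, and on the others the groups at 24 h overlap.

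At 24 h and an unadjusted p under 0.05 (limma), 4 of the 38 members were higher and 4 lower, HK2 among the lower. Beside them stood 1150 and 985 of the 11380 genes. The members other than HK2 gave intervals rather than calls. VHL at 24 h read 416, 469 and 545 in control and 269, 386 and 486 in miR-28 cells (-0.35; 95% interval -0.58 to -0.11; adjusted p = 0.0790). PGAM1, which moves the phosphate of phosphoglycerate, read 23295, 25859 and 26268 and then 21282, 22839 and 23317 (-0.16; 95% interval -0.27 to -0.04; adjusted p = 0.0998). SLC2A3, a high-affinity glucose transporter, read 180.5, 249.96 and 310.3 in control and 83.9, 180.1 and 244 in miR-28 cells (-0.54; 95% interval -0.98 to -0.09; adjusted p = 0.161). Another SLC2A3 probe set lay the other way, from 44.2 to 152 in control and from 111.6 to 241 in miR-28 cells. On a further, dimmer one the ranges were 19.0 to 160 and 8.4 to 155, so the direction for SLC2A3 depended on the probe set. All of these groups overlapped.

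On the other side of 0 at 24 h lay ENO2 (0.41; 95% interval 0.03 to 0.79; adjusted p = 0.218), AK4 (0.23; 0.04 to 0.41; adjusted p = 0.145), PFKM (0.19; 0.03 to 0.35; adjusted p = 0.173) and KDM3A, a histone demethylase (0.17; 0.01 to 0.33; adjusted p = 0.218). AK4 read 2207, 2579 and 2774 in miR-28 cells against 1965, 2070.3 and 2503 in control cells, and KDM3A read 1468, 1696 and 1912 against 1393, 1501 and 1632. These ranges overlap too.

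None of the 5 members called with time in both genotypes was called between genotypes at 24 h. The difference at 24 h was -0.01 for PFKFB4 (95% interval -0.48 to 0.47), 0.03 for PDK1 (-0.25 to 0.31), -0.12 for BNIP3 (-0.30 to 0.06), 0.09 for PFKP (-0.11 to 0.29) and 0.13 for ALDOC (-0.18 to 0.44). VEGFA, called with time in control cells, was at -0.14 (-0.41 to 0.14). HIF1A was at -0.06 (-0.21 to 0.09), with 9467, 10770.3 and 12287.5 in miR-28 and 10261, 11020.5 and 12368 in control cells. PFKFB2 read 28.1, 155 and 216 in miR-28 cells and 21.2, 141 and 231 in control cells. PFKFB3, the inducible PFKFB isoform, read 799, 1376 and 1819 against 913, 1653 and 1935, and EGLN1 992, 1363 and 1539 in miR-28 cells against a control median of 1387.

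Of the glycolytic enzymes not yet given for 24 h, none was called, and their intervals included 0. LDHA was at -0.04 (95% interval -0.21 to 0.14), ENO1 at -0.07 (-0.19 to 0.06), PGK1 at 0.02 (-0.11 to 0.15) and GPI at 0.02 (-0.16 to 0.21). ALDOA was at 0.07 (-0.09 to 0.23), with 19099, 23407 and 27138 in miR-28 and 20392.5, 21473 and 24927 in control cells. LDHB was at -0.15 (-0.37 to 0.06), with 47045, 58676 and 66057 against 57587, 62147 and 71665.5. TPI1 was at -0.07 (-0.26 to 0.13), PKM at 0.03 (-0.23 to 0.28) and GAPDH at -0.12 (-0.41 to 0.17). PDK3 was at -0.04 (-0.20 to 0.12), PFKL at -0.01 (-0.30 to 0.27) and HK1 at -0.08 (-0.53 to 0.36).

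**Figure D5:**
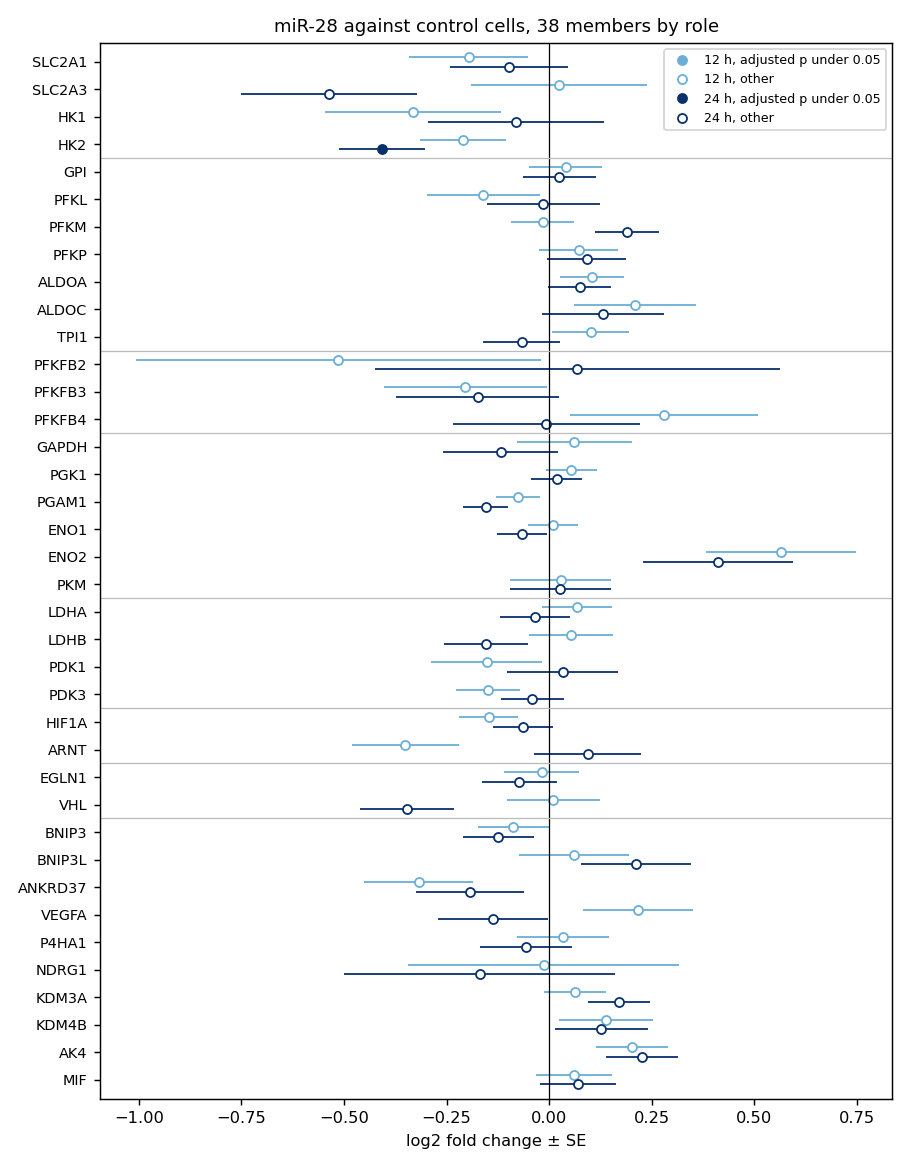
Log2 difference between miR-28 and control cells with its standard error for the 38 tested members, 12 h in light blue and 24 h in dark blue, filled where limma's adjusted p is under 0.05. HK2 at 24 h is the 1 filled point, and the bars of PFKFB2 and NDRG1 are the longest.

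Across the fit of all probe sets that passed the filter, 87 of the members' 109 entered. In control cells 9 rose and 3 fell with time (3.09% of 27306 probe sets were called, 1.59% higher and 1.5% lower), and in miR-28 cells 5 rose and 1 fell (1.88% of all; 0.981% higher, 0.901% lower). At 24 h 1 was lower in miR-28 cells, the brightest of HK2 (2.75% of all, 1.27% higher and 1.48% lower; adjusted p = 0.0413), and at 12 h none was called (0.165% of all; 0.0439% higher, 0.121% lower). No member differed in its miR-28 effect between populations of letter A and letter B at 12 h or 24 h (0.00879% and 0% of all genes were called).

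Other genes of the same pathways, from a list that holds none of the members, had 54 tested. With time 2 rose in control cells, PGM1 (0.37 ± 0.08), which links glycogen to glycolysis, and PDHA1 (0.29 ± 0.09), a subunit of pyruvate dehydrogenase, and none fell. In miR-28 cells PGM1 rose (0.33 ± 0.08), and HIF1AN (-0.38 ± 0.10), the asparagine hydroxylase that restrains HIF, and BHLHE40 (-0.51 ± 0.14), a hypoxia-responsive repressor, fell. Between genotypes none was called at 12 h, and at 24 h 2 were higher in miR-28 cells: DDIT4 (0.76 ± 0.11; adjusted p = 0.000142), an inhibitor of mTORC1 signalling, and MXI1 (0.51 ± 0.12; adjusted p = 0.0126), a MAX partner that opposes MYC. DDIT4, MXI1 and BHLHE40 were all listed as genes of the hypoxia response. The shares called over all genes were 6.14% with time in control cells and 4.66% in miR-28 cells. Between genotypes they were 0.536% at 12 h and 5.35% at 24 h. The median difference of these 54 genes between genotypes at 24 h was 0.04, against 0.02 for all genes tested.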

How the data were processed

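The authors deposited linear intensity per probe set, made with MAS5 per the submitters' processing notes; no version or settings are given in the sources used here. Symbols came from the platform annotation, updated through a RefSeq gene table: of 54613 probe sets that are not controls, 41091 had 1 symbol, 1801 several and 11721 none listed. There are no detection calls in the table, and precision is limited by how many arrays there are.

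The analysis used log2(intensity + 8). The brightest probe set stood for a gene, and genes with a mean above 6.11 (the median of all probe sets) were tested. The members just below the filter had means of 5.92 (EGLN3) and 5.71 (EPAS1), and those just above 6.82 (NDRG1) and 7.14 (PFKFB2). Group means over 24 arrays were fitted in R 4.3.3 (limma 3.58.1, statmod 1.5.0), with a random block for the 4 bulk populations. The consensus correlation was -0.0229, below 0, so the block slightly narrowed the errors between genotypes instead of widening them for shared populations. Between genotypes at 24 h, 609 of the 11380 genes were called with the block and 531 without it. Tests were two-sided, adjusted by Benjamini-Hochberg over all genes tested and called under 0.05. A second fit took all probe sets, and another, of 8 group means, tested the difference between populations. Counts and promoter matches were made with Python 3.11.15 and pandas 2.3.3. Only the limma fit was tested on simulated data, which held independent noise and no effect of population.

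The members and lists were chosen with earlier results of these data known. Members called in any comparison, in either fit, were named with their values, and so were, for each role, the 2 with the largest moderated statistic at 24 h. Other pathway genes were named where called. Alternatives covered the pseudocount, filter, scaling, population and replicate blocks, probe-set choice, single letters and leaving out each array; leaving out both arrays of high ACTB ratio was chosen after seeing the data.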

Additional observations from a re-analysis of the deposited data

Results flagged for a closer look

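In 92 groups of 6 arrays (23 named members in 4 groups), 2 held an array far from the others, where chance alone flags about 1 group in 20. BNIP3 in miR-28 cells at 12 h read 3289.07 on array A1, and the other 5 arrays read from 3728 to 3960.3. The low array widens the gap to the 24 h arrays, and without any single array, this one included, the rise of BNIP3 with time kept its call. PFKFB2 in miR-28 cells at 12 h read 28.1919 on array B2, and the others from 123 to 217; this array also has one of the high ACTB 3' to 5' ratios, whose part in the value was not tested. PFKFB2 was called in no comparison.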

How the results depend on the processing

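The 38 tested members gave 0 calls at 12 h and 0 for the difference of the effect between times under every alternative run. For the other comparisons the counts were 1 at 24 h, 10 with time in control and 7 with time in miR-28 cells. With population means as the unit they were 0, 0 and 0, with letter A alone 0, 0 and 1 and with letter B alone 0, 1 and 0, each resting on fewer samples. The mean of a gene's probe sets gave 0, 6 and 5; it turned HK2 with time in control cells to -0.00473 and PDK3 to 0.0479. No filter gave 0, 7 and 6, ending HK2, ARNT and PDK3 with time in control and PGK1 in miR-28 cells. A stricter filter gave 2 (VHL beside HK2), 8 and 9: it left 32 members to test, without PFKFB4 and ENO2, and added AK4, PFKL and VHL with time in miR-28 cells. Leaving out each array gave 0 to 1, 8 to 11 and 6 to 8, and the count at 24 h was 0 without control A3, miR-28 A3 or miR-28 B2. PFKFB4, PDK1, BNIP3, PFKP, ALDOC, ENO2, VEGFA and PFKM kept each of their calls with time in 24 of 24 such fits. Quantile normalization split the control calls into 7 higher and 5 lower, and median centring the miR-28 calls into 7 and 1. No population block gave 1, 10 and 8. The replicate block (letter and number) gave 1, 10 and 8, the last as 7 higher and 1 lower, without PGK1 (adjusted p = 0.0507). The deviations of same-numbered arrays in different groups correlated with r from -0.0938 to 0.118 (median 0.025). For arrays of other numbers r ran from -0.133 to 0.105 (median -0.0077). Of the 24 arrays, 10 lay closest to their own number, and what same-numbered arrays share was not tested. Without both arrays of high ACTB ratio the counts were 1, 9 and 7, the 9 without PDK3 (adjusted p = 0.0548).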
